A study of Mus musculus with 10 samples.

Results

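Peaks that touch a 5′ untranslated region (5′ UTR) but lie outside promoters were examined in CUT&Tag profiles of mouse retinal explants for 2 histone marks, lactylation of histone H3 at lysine 18 (H3K18La) and acetylation at lysine 27 (H3K27Ac). The members were all peaks whose deposited annotation began with 5′ UTR. There were 598 of them among 108253 quantified peaks (0.552%), assigned to 564 genes, of which 32 had 2 or more members. The peak set has the size of the set that the study describes as merged from H3K18La peaks of developing retina rather than of explants. For the principal component analysis of explants, its methods name a set merged from peaks of both marks. The sources used here do not settle which set was quantified. If it was the developmental set, its peaks were found by H3K18La and not by H3K27Ac, and every share of the reads in peaks and every comparison of the marks below refers to such peaks. Promoter peaks, defined by the authors as -1000 to 500 bp around a transcription start site, were annotated first, so a member starts at least 505 bp downstream of the start site of its assigned transcript.

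Retinas came from wild-type C57Bl/6J mice at postnatal day 28 and were cultured for 48 hours in Neurobasal-A medium with 5 mM or 25 mM glucose. H3K18La was profiled in 3 libraries per glucose level and H3K27Ac in 2, with 500000 dissociated cells per assay and all 10 libraries labelled as batch 1. Extraocular tissue, sclera and pigment epithelium were trimmed away, and the whole neural retina was assayed, so fewer cells of a type and less mark per cell cannot be told apart. The comparison of glucose levels asked how the supply of the sugar that yields lactate changes both marks.

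A 5′ UTR is the part of a transcript between its start site and its start codon. It can be split by introns, so its later exons may lie many kilobases inside a gene. H3K27Ac marks active promoters and enhancers. H3K18La is formed on the same histone tail from lactyl groups, which derive from lactate, the end product of glycolysis, and the retina is known for producing lactate even when oxygen is present. In CUT&Tag an antibody against the mark carries a transposase to it, and peaks are stretches where the tagged fragments accumulate.

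Most members sat at the second exon of a gene and held little untranslated sequence. In the GENCODE M21 annotation of GRCm38, 588 of the 598 members overlapped a 5′ UTR exon, and the earliest such exon was exon 1 in 142 members, exon 2 in 357, exon 3 in 68 and exon 4 or later in 21. A median of 74 bp per member, or 8.15% of its bases, was 5′ UTR. The annotation names the 5′ UTR ahead of coding exons and introns, and 382 members (63.9%) held an annotated start codon. No member held an M21 transcription start site. In 191 members (31.9%), however, the peak reached into the promoter window of another M21 transcript, so that these members could also count as promoter-proximal. The distance from the assigned start site had a median of 11229 bp, with 107 members under 2 kb and 59 beyond 100 kb. Members were wider than most peaks, with a median width of 901 bp against 757 bp for all peaks and 1115 bp for promoter peaks.

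The sequence of the members lay between that of promoters and that of coding exons. Median GC content was 53.7% in members, 57.5% in promoter peaks, 51.3% in exon peaks and 49.6% in all peaks. Peaks with over 50% GC and an observed-to-expected CpG ratio over 0.6, termed CpG-rich here, made up 90 members (15.1%), against 49.0% of promoter peaks, 3.05% of exon peaks and 8.47% of all peaks. The GC box GGGCGG, which SP and KLF factors bind, was found on either strand within the central 300 bp of 16.2% of members, 44.8% of promoter peaks, 8.02% of exon peaks and 11.8% of all peaks. Motifs of retinal factors were about as frequent as in all peaks: TAATCC, the core bound by CRX and OTX2, was in 9.70% of members and 11.5% of all peaks, and the NEUROD1 E-box CAGATG in 25.4% and 25.2%. CACACCC, a KLF site, was in 8.70% and 8.22%, and the E-box CACGTG in 5.85% and 4.84%. These shares are descriptions and were not tested.

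**Figure D1:**
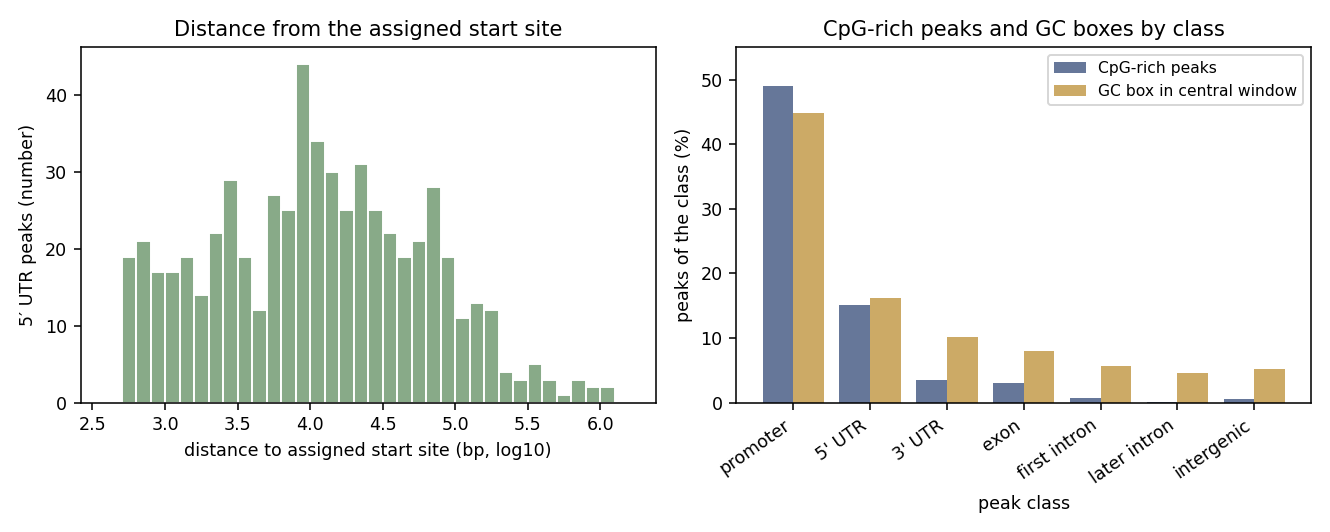
Left, number of the 598 members (vertical axis) by distance from the assigned transcription start site (bp, log10). Right, percent of each peak class that was CpG-rich or held a GC box in its central 300 bp. The distances spread from 505 bp to over 1 Mb, and the members stand between promoters (49.0% CpG-rich) and coding exons (3.05%).

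Examples of these sites in members of retinal and metabolic genes are given below from GRCm38, 5′ to 3′ on the strand that carries the motif, with the motif in capitals. They are shown because photoreceptor factors bind the TAATCC core, and because the GC box was the motif whose share differed most between peak classes. The TAATCC sites lay at chr2:79455135-79455160 (plus strand) in Neurod1 and at chr3:96699203-96699228 (minus) in Pias3.
Neurod1: tccctctcccTAATCCtacagaaatg
Pias3: tccctaccccTAATCCagagattccc
The GC boxes lay at chr14:48662388-48662413 (plus) in Otx2, at chr10:42275006-42275031 (minus) in Foxo3, at chr19:53313805-53313830 (plus) in Mxi1 and at chr6:48568733-48568758 (plus) in Lrrc61.
Otx2: agctccagagGGGCGGgcgtgtggaa
Foxo3: ccgcagccggGGGCGGctgggggctc
Mxi1: gcgagtcgggGGGCGGgtcgtgcgtg
Lrrc61: acgagtgagtGGGCGGggcagtgagc
The KLF site of Zbtb7b lay at chr3:89384402-89384428 (minus), and the NEUROD1 E-box of Pfkl at chr10:78006120-78006145 (plus).
Zbtb7b: aaccaccacaCACACCCatgcccacaa
Pfkl: gtcccctaggCAGATGggaagcagta
The TAATCC sites shown lay 23 bp (Neurod1) and 8 bp (Pias3) from the centre of their peaks. Those of Pkm, Rasgef1a and Ctcf lay 22, 45 and 133 bp away. Only the site nearest the centre was kept per peak, so these distances do not show central placement. The strongest member, at Slc2a1, had none of the 5 motifs in its central 300 bp. A motif match is a description of these letters and does not show that a factor binds there.

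Values were deposited as RPKM, reads per kilobase of peak scaled to the reads of the library. The deposited values were whole multiples of 1 read, so the reads of each peak and the denominator of each library could be recovered. Denominators ran from 1358008 to 7424470 reads. Single members were thinly covered in the H3K18La libraries, with a median of 1 to 4 reads per member at 5 mM and 3 to 6 at 25 mM. H3K27Ac members held a median of 6 and 11 reads at 5 mM and 22.5 and 21 at 25 mM. In 259 members no H3K18La library at 5 mM held more than 3 reads, the number that a count of 0 allows. Promoter peaks of rod markers were found for 10 of 10 genes and had the highest mean H3K27Ac RPKM of the 10 marker lists, 31.1 and 54.0 at 25 mM. Microglial and vascular markers had promoter peaks for 1 of 8 and 2 of 8 genes.

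In H3K18La libraries the members took a share of reads close to their share of length, whereas in H3K27Ac libraries they took more. The members cover 0.633% of the peak bases. They held 0.638%, 0.619% and 0.629% of the reads in peaks in the H3K18La libraries at 5 mM and 0.703%, 0.652% and 0.636% at 25 mM. In the H3K27Ac libraries the shares were 0.836% and 0.874% at 5 mM and 0.891% and 0.904% at 25 mM. The share of reads divided by the share of bases was thus 0.978 to 1.11 for H3K18La and 1.3 to 1.43 for H3K27Ac. Promoter peaks had ratios of 0.845 to 1.09 for H3K18La and 1.51 to 1.94 for H3K27Ac, while exon peaks stayed between 0.865 and 1.02 for both marks. First-intron peaks had ratios of 1.10 to 1.18 for H3K18La and 1.06 to 1.18 for H3K27Ac. For H3K27Ac, 3′ UTR peaks were also above 1, at 1.05 to 1.17.

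**Figure D2:**
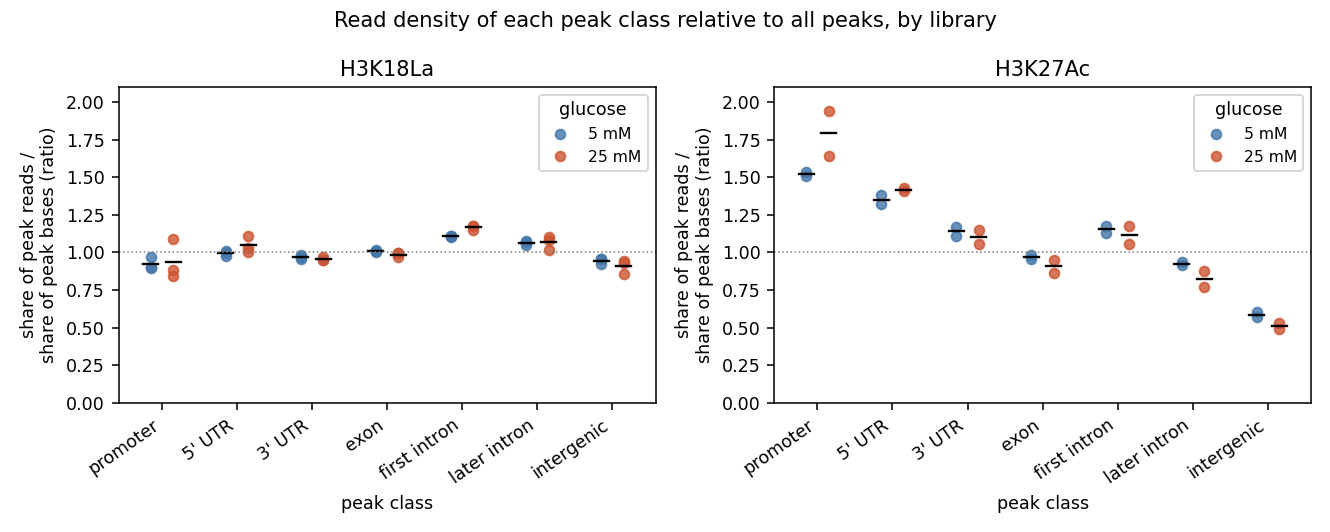
Share of the reads in peaks divided by the share of peak bases (vertical axis, ratio) for 7 peak classes, 1 point per library, with the mean of each glucose level as a bar. H3K27Ac falls from promoters through 5′ UTR peaks (1.3 to 1.43) to intergenic peaks, whereas the H3K18La classes stay near 1.

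In the level per peak, members lay below promoters in all 4 H3K27Ac libraries and in 5 of 6 H3K18La libraries, although in reads per base the members were above promoters in all 6 H3K18La libraries. The mean log2(RPKM + 0.5) of members minus that of promoter peaks was -0.06 over the 6 H3K18La libraries (range -0.17 to 0.00) and -0.45 over the 4 H3K27Ac libraries (range -0.66 to -0.32). The values of the marks did not overlap, and the difference was -0.39. An exact two-sided permutation test of the mark labels within each glucose level gave p = 0.01, the smallest that its 100 arrangements allow, and 0.07 after Benjamini-Hochberg adjustment over the 7 comparisons of this family, which misses 0.05. The antibody cannot be told apart from the mark.

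The share of a library in 5′ UTR peaks was higher at 25 mM in both marks, without overlap of the groups. In H3K18La libraries, 5′ UTR peaks held 0.0749% ± 0.00156 (SD, n = 3) of the denominator with 5 mM glucose and 0.217% ± 0.0254 (SD, n = 3) with 25 mM, which is 2.89 times as much. All peaks together held 11.9% ± 0.0966 (SD, n = 3) and 32.6% ± 2.08 (SD, n = 3), or 2.74 times as much. With 3 against 3 libraries an exact two-sided permutation cannot go below p = 0.1, which was the value found (adjusted 0.233). In H3K27Ac libraries they held 0.226% ± 0.0700 (SD, n = 2) with 5 mM glucose and 0.565% ± 0.0766 (SD, n = 2) with 25 mM, or 2.50 times as much, beside 26.3% ± 7.35 (SD, n = 2) and 63.0% ± 9.19 (SD, n = 2) in all peaks, or 2.39 times as much. With 2 against 2 the lowest possible exact permutation p is 0.33, which was the value found (adjusted 0.389). The H3K27Ac libraries at 5 mM were far apart, at 0.177% (95% Wilson interval 0.173% to 0.181%) and 0.276% (0.271% to 0.280%). Such intervals cover counting error only, since fragments carried no molecular identifiers.

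The members' share of the reads in peaks moved less. The H3K18La values at 5 mM (0.619% to 0.638%) and 25 mM (0.636% to 0.703%) overlapped, and the difference of 0.0349 percentage points gave an exact permutation p of 0.2. For H3K27Ac the difference was 0.0430 percentage points with no overlap (exact permutation p = 0.33).

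The gap between members and promoters or coding exons was then compared between glucose levels. For H3K18La, members minus promoters averaged -0.05 ± 0.04 on the log2 scale (SD, n = 3) with 5 mM glucose and -0.06 ± 0.10 (SD, n = 3) with 25 mM, with overlap (exact permutation p = 0.9). For H3K27Ac it moved from -0.33 ± 0.01 (SD, n = 2) to -0.56 ± 0.14 (SD, n = 2), with no overlap (exact permutation p = 0.33). That change of -0.23 became -0.13 without 25 mM replicate 1 and -0.33 without 25 mM replicate 2. The difference between the changes of the marks was -0.22 and was not past the threshold, which its 120 arrangements could have reached (exact permutation of glucose labels within each mark, p = 0.2). Members minus coding exons moved from 0.01 ± 0.01 (SD, n = 3) to 0.16 ± 0.08 (SD, n = 3) for H3K18La (exact permutation p = 0.1) and from 0.33 ± 0.04 (SD, n = 2) to 0.54 ± 0.08 (SD, n = 2) for H3K27Ac (exact permutation p = 0.33). Neither pair of groups overlapped, and none of the comparisons within a mark could pass 0.05 at this number of libraries.

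Peak by peak, the marks rose at 25 mM glucose at many members and fell at none past the threshold. Each of the 108253 peaks was tested with limma on log2(RPKM + 0.5), and a peak was called when its p, adjusted over the whole set by Benjamini-Hochberg, was under 0.05. H3K18La rose at 139 members (23.2%), where 20.6% of all peaks were called higher and 0.117% lower. H3K27Ac rose at 150 members (25.1%), where 16.4% of all peaks were called higher and 0.179% lower. At an unadjusted p under 0.05, 2 members fell in H3K18La and 1 in H3K27Ac in limma, and voom on the recovered reads called 0 and 1 falls. That fall was at Sox5, an SRY-related factor gene named here after its values were seen, with H3K27Ac of 1.63 and 1.99 RPKM at 5 mM and 1.72 and 0 RPKM at 25 mM, which overlapped. With median centring 1 member was called lower in H3K18La, Grip2, a scaffold protein gene also named after its values were seen, with 2.36, 0.96 and 2.45 RPKM at 5 mM and 0, 0.41 and 0.56 RPKM at 25 mM. The labels do not say that libraries came from separate animals, so p-values measure the spread between these samples only. Called members had higher levels over all libraries of the mark. The median RPKM was 4.39 against 1.04 for the other members in H3K18La and 8.57 against 2.00 in H3K27Ac. These levels include the 25 mM values whose rise made the call, so they do not show better coverage apart from the change.

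The median log2 fold change of members was 0.84 in H3K18La, beside 0.76 for all peaks, 0.88 for promoters, 0.73 for exons and 0.71 for 3′ UTR peaks. In H3K27Ac it was 0.85, beside 0.58 for all peaks, 1.13 for promoters, 0.61 for exons and 0.70 for 3′ UTR peaks. First-intron peaks had 0.88 in H3K18La, above members, and 0.67 in H3K27Ac, below members. Of those peaks 26.7% were called higher in H3K18La and 16.6% in H3K27Ac. Fold changes on this scale understate the change of weak peaks. Every 25 mM library was above every 5 mM library at 245 members in H3K18La (41.0%, background 36.6%) and at 397 members in H3K27Ac (66.4%, background 53.0%). Members with a negative fold change numbered 79 in H3K18La and 73 in H3K27Ac, and 22 were negative in both.

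**Figure D3:**
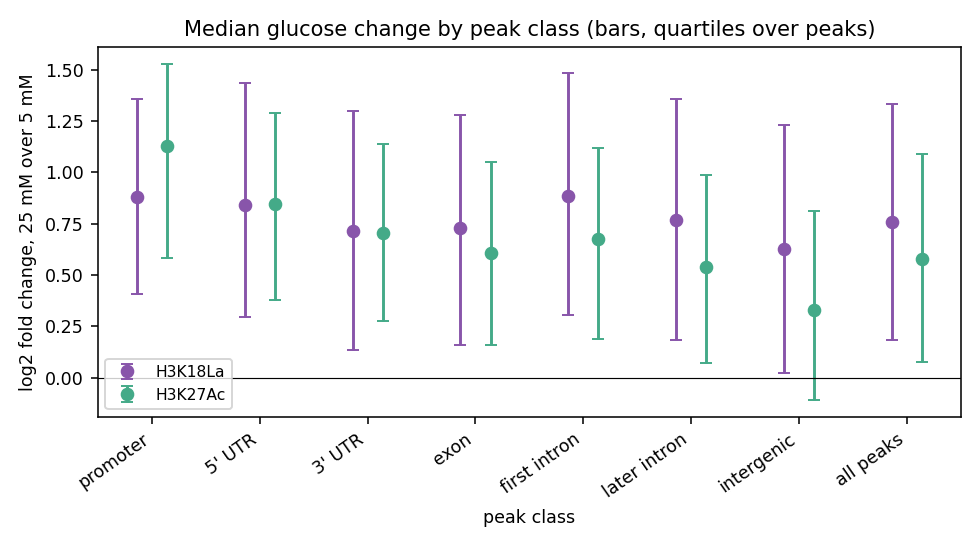
Median log2 fold change of RPKM + 0.5 from 5 mM to 25 mM glucose (vertical axis) for each peak class and for all peaks, with bars from the lower to the upper quartile over peaks. The 5′ UTR peaks stand at 0.84 for H3K18La and 0.85 for H3K27Ac, between promoters and exons in both marks.

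These calls rest on the scale. When each library was scaled to its reads in peaks, the median fold change of members became -0.03 in H3K18La and -0.16 in H3K27Ac, that of all peaks -0.08 and -0.29, and no member was called. The H3K27Ac calls also went to 0 without robust moderation, with a pseudocount of 0.1 and without any 1 of the 4 libraries, whereas the H3K18La calls stayed between 80 and 139 when 1 library was left out. Of the members named below, Agtpbp1, Camta1, Galntl6, Otx2, Skida1 and Tub lost their H3K18La call with median centring, and Pias3 lost it with a pseudocount of 0.1. Of 21 H3K27Ac calls at named members, 14 were lost with median centring and 12 with the replicate block. The H3K27Ac calls of Slc2a1, Otx2, Foxo3, Cc2d2a, Tub, Zbtb7b and Lrrc61 were among those lost in both settings.

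The marks were called together at 72 members (12.04%, background 8.17% of all peaks and 12.8% of promoters), which is 51.8% of the H3K18La calls and 48.0% of the H3K27Ac calls. A further 67 members were called in H3K18La alone and 78 in H3K27Ac alone, but that does not show a difference between marks. A test of the glucose by mark interaction over all 10 libraries called 0 members and 0.0% of all peaks (limma and voom), with 24 members at an unadjusted p under 0.05 in limma (background 4.61% of all peaks) and 40 in voom (background 6.6%), close to the background in both. Over the 598 members the mean log2 levels of the marks had a Pearson r of 0.76 and a Spearman rho of 0.73, as a description of peaks that share width and base composition.

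**Figure D4:**
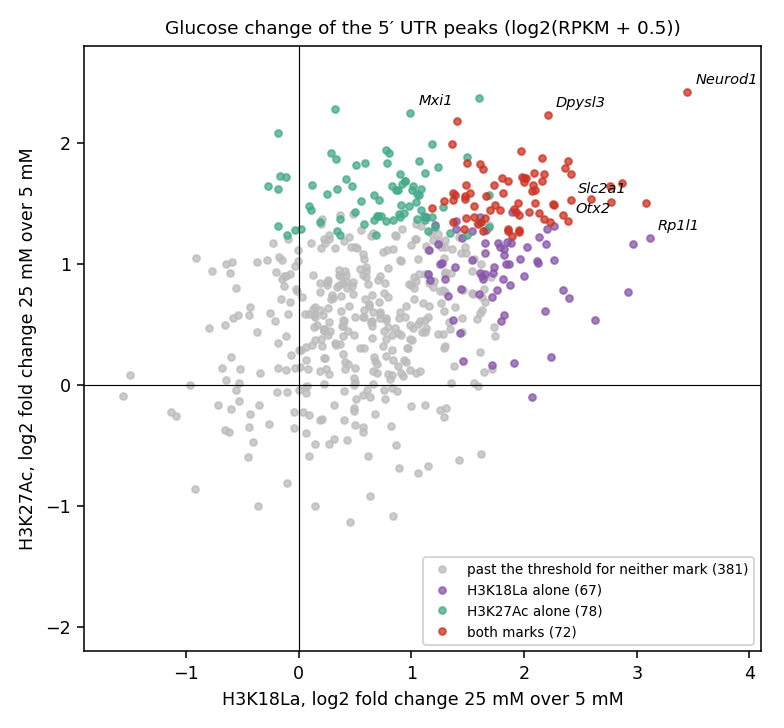
Log2 fold change from 5 mM to 25 mM glucose in H3K18La (horizontal) and H3K27Ac (vertical), 1 point per member, coloured by the mark or marks in which the adjusted p was under 0.05. The 72 members called in both marks lie in the upper right with Neurod1 at its corner, and no called member has a negative change in the mark that called it.

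Neurod1 encodes a basic helix-loop-helix factor of photoreceptors and amacrine cells. Among called members it had the largest rise in both marks in limma on log2(RPKM + 0.5) with all libraries. Its member (chr2:79454889-79455454, exon 2, start codon inside, 1297 bp from the start site) had H3K18La values of 0.84, 1.36 and 0 RPKM at 5 mM and 21.6, 9.13 and 7.15 RPKM at 25 mM. The log2 fold change was 3.45 ± 0.52 (SE; limma adjusted p = 0.000577). Its H3K27Ac values were 6.54 and 13.1 RPKM at 5 mM and 75.2 and 35.7 RPKM at 25 mM (log2 fold change 2.42 ± 0.51, limma adjusted p = 0.0133). Its place is not resolved: without 5 mM replicate 3 or 25 mM replicate 1 its H3K18La log2 fold change was 2.90 and 3.00, below those of other members such as Ccdc162 (2.97) and Pdzd2 (3.11), and without 5 mM replicate 1 or 25 mM replicate 1 its H3K27Ac log2 fold change was 1.95 and 1.89, below those of Mxi1 (2.00) and Fem1c (2.39). With a pseudocount of 0.1 the H3K27Ac log2 fold change of Neurod1 was 2.47, below those of Gngt2 (2.81) and Ctcf (2.77). Members named for a large rise were chosen among those whose glucose levels did not overlap in that mark. Only 11 bp of this peak are 5′ UTR, and the gene is among those that the study names for its glucose comparison, so its direction is not independent evidence.

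The next H3K18La rises by size were at Rp1l1, Pdzd2, Ccdc162 and Pias3. Rp1l1, which encodes a protein of the photoreceptor axoneme, had 0.80, 2.76 and 0.62 RPKM at 5 mM and 15.4, 12.4 and 14.5 RPKM at 25 mM (chr14:64021635-64022823, log2 fold change 3.11 ± 0.40, limma adjusted p = 0.000255). Its H3K27Ac was 8.56 and 16.8 RPKM at 5 mM and 31.0 and 26.3 RPKM at 25 mM, which was not called. Pdzd2, a PDZ-domain protein gene, went from 0.48, 2.75 and 0.75 RPKM to 12.4, 13.3 and 13.0 RPKM (chr15:12544943-12545924, log2 fold change 3.08 ± 0.42, limma adjusted p = 0.00033). The 3 libraries at 25 mM lay within 1 RPKM of each other in this member, far above all at 5 mM. Ccdc162 (chr10:41585659-41586344) went from 0.69, 4.22 and 2.15 RPKM to 18.5, 17.2 and 18.7 RPKM, a log2 fold change of 2.92. Pias3, a SUMO ligase gene (chr3:96698908-96699540), went from 1.498, 2.13 and 0 RPKM to 11.3, 7.38 and 8.52 RPKM, a log2 fold change of 2.77.

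In limma on log2(RPKM + 0.5) with all libraries, the largest called H3K27Ac rises after Neurod1 were at Fem1c, Mxi1, Dpysl3 and Agtpbp1. This order is not resolved. With a pseudocount of 0.1 the log2 fold changes of Dpysl3 (2.29) and Agtpbp1 (2.24) were below those of Gngt2 (2.81) and Ctcf (2.77). Fem1c, a substrate receptor of a ubiquitin ligase (chr18:46523878-46524687), had 2.00 and 4.57 RPKM at 5 mM and 17.7 and 18.1 RPKM at 25 mM (log2 fold change 2.37 ± 0.45, limma adjusted p = 0.0115). Mxi1, a MAX-binding repressor that antagonises MYC (chr19:53313074-53314572), had 3.24 and 4.73 RPKM at 5 mM and 24.0 and 17.4 RPKM at 25 mM (log2 fold change 2.25 ± 0.44, limma adjusted p = 0.0115). H3K18La was not called at either gene, with 0.59, 0.48 and 0 RPKM at 5 mM and 3.14, 1.82 and 1.25 RPKM at 25 mM in Fem1c. Dpysl3, a collapsin response mediator gene (chr18:43391337-43393161), was called in both marks, with log2 fold changes of 2.21 in H3K18La and 2.23 in H3K27Ac. Agtpbp1, a tubulin deglutamylase whose loss causes photoreceptor degeneration (chr13:59554993-59555804), rose from 5.41 and 8.72 to 36.1 and 30.0 RPKM in H3K27Ac and from 1.75, 1.43 and 4.53 to 6.27, 6.97 and 7.47 RPKM in H3K18La. That H3K18La call was lost without any of 5 of the 6 libraries, all but 5 mM replicate 3 (limma adjusted p 0.0559 to 0.0947). Each of these 4 H3K27Ac calls was lost when any 1 library was left out.

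By mean RPKM over all libraries of a mark, with both glucose levels pooled, the strongest member in both marks was at Slc2a1, which encodes GLUT1, a glucose transporter. It was also first by the mean of the 25 mM libraries in both marks and of the 5 mM libraries in H3K27Ac, but in H3K18La at 5 mM other members, such as Scml4 and Rasgef1a, had higher means. The peak lay at exon 2 (chr4:119111898-119113025, 3187 bp from the start site), with 132 bp of 5′ UTR and no start codon. Its H3K18La was 2.101, 2.91 and 5.88 RPKM at 5 mM and 26.2, 19.8 and 15.2 RPKM at 25 mM (log2 fold change 2.41 ± 0.33, limma adjusted p = 0.000373). H3K27Ac was 18.04 and 25.6 RPKM at 5 mM and 70.6 and 55.6 RPKM at 25 mM (log2 fold change 1.52 ± 0.50, limma adjusted p = 0.0407). Groups did not overlap in either mark.

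The next members by this pooled H3K18La mean were Rasgef1a, a Ras exchange factor gene, Scml4, a Polycomb-like gene, and Pak7, a p21-activated kinase gene. All 3 were called in H3K18La. At 25 mM alone Ccdc162 was second, and the H3K18La ranges of Slc2a1, Ccdc162, Pak7, Rasgef1a and Scml4 overlapped, so their order is not resolved. Rasgef1a (chr6:118078965-118081004) had 6.27, 4.07 and 2.89 RPKM at 5 mM and 19.5, 15.8 and 16.7 RPKM at 25 mM. Scml4 (chr10:42911819-42912488) had 4.95, 4.32 and 5.50 RPKM and then 15.9, 13.6 and 20.6 RPKM, and ranked 3 of 598 by H3K18La but 109 by H3K27Ac. Pak7 (chr2:136332781-136333451) ranked 4 and 55, with 4.24, 3.45 and 3.29 RPKM at 5 mM and 15.2, 17.6 and 20.1 RPKM at 25 mM. By the pooled H3K27Ac mean the order after Slc2a1 was Lrrc61, Zbtb7b and Neurod1. Lrrc61 (chr6:48567884-48569675) had 11.5 and 22.1 RPKM at 5 mM and 62.2 and 45.5 RPKM at 25 mM. Zbtb7b, a zinc finger repressor gene (chr3:89383440-89385671), had 10.0 and 19.9 RPKM at 5 mM and 63.8 and 37.2 RPKM at 25 mM. The 25 mM values of Lrrc61, Zbtb7b, Neurod1 and Slc2a1 overlapped each other, so their order is not resolved.

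**Figure D5:**
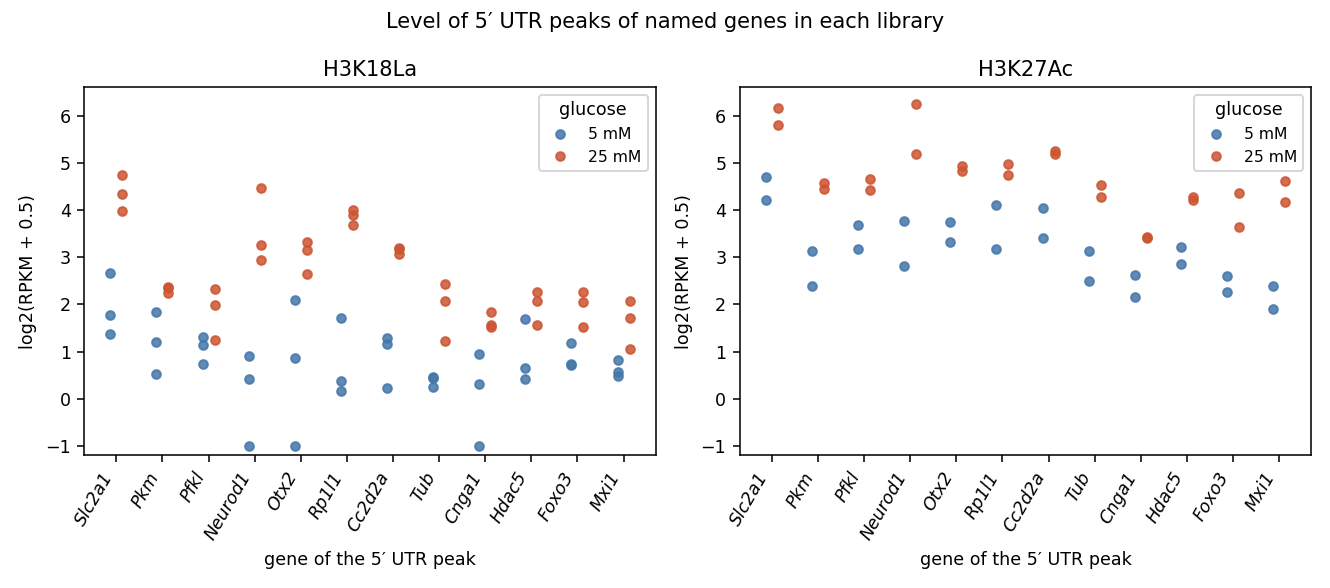
Level of 12 members as log2(RPKM + 0.5) (vertical axis) in each H3K18La library (left) and H3K27Ac library (right), coloured by glucose, with a value of -1 marking 0 reads. Slc2a1 and Neurod1 separate the glucose levels in both marks, and Pfkl and Hdac5 separate them in H3K27Ac but were not past the threshold.

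Of 37 genes of glycolysis and lactate handling, 3 had a member, and 1 was called higher in H3K18La and 2 in H3K27Ac (background 20.6% and 16.4% of all peaks). The members of each list are too few to be read against the background. Beside Slc2a1, these were Pkm, pyruvate kinase, and Pfkl, the liver-type phosphofructokinase. Pkm (chr9:59663098-59664321) had H3K27Ac of 4.72 and 8.29 RPKM at 5 mM and 23.4 and 21.2 RPKM at 25 mM (log2 fold change 1.75 ± 0.45, limma adjusted p = 0.0193). Its H3K18La of 3.099, 0.95 and 1.80 RPKM at 5 mM and 4.57, 4.22 and 4.68 RPKM at 25 mM was not called. Pfkl (chr10:78004927-78007072) had H3K27Ac of 8.51 and 12.4 RPKM and then 24.8 and 21.1 RPKM, and was called in neither mark. Only 2 bp of that peak are 5′ UTR. Of 41 genes of glucose and energy sensing, 1 had a member. It was Foxo3, a forkhead factor restrained by insulin signalling (chr10:42274105-42275764), with H3K27Ac of 4.32 and 5.53 RPKM at 5 mM and 20.02 and 11.9 RPKM at 25 mM, which was called.

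Of 46 retinal transcription factors, 5 had members (6 peaks), and 2 were called higher in each mark (background 20.6% and 16.4%). These 2 were Neurod1 and Otx2, a homeodomain factor needed for photoreceptor and bipolar cells. Otx2 (chr14:48661971-48662558, 11261 bp from the start site, CpG-rich) had H3K18La of 0, 1.31 and 3.76 RPKM at 5 mM and 9.52, 8.37 and 5.73 RPKM at 25 mM (log2 fold change 2.39 ± 0.60, limma adjusted p = 0.0122). This H3K18La call was lost without 5 mM replicate 2, 25 mM replicate 1 or 25 mM replicate 2 (limma adjusted p 0.0722 to 0.0797), with a pseudocount of 0.1 and with non-robust moderation, and without 5 mM replicate 1 the log2 fold change was 1.56. The same Otx2 peak had H3K27Ac of 9.44 and 12.9 RPKM at 5 mM and 27.9 and 30.0 RPKM at 25 mM (log2 fold change 1.35 ± 0.46, limma adjusted p = 0.0479). Zfhx3, a zinc finger homeobox gene, had H3K18La of 0.85, 0.35 and 0 RPKM at 5 mM and 5.46, 2.20 and 0.60 RPKM at 25 mM, which overlapped. Nfix and Prox1 were called in neither mark.

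Of 40 genes of photoreceptor structure, the cilium and retinal disease, 3 had a member, with 3 called higher in H3K18La and 2 in H3K27Ac (background 20.6% and 16.4%). Cc2d2a, of the ciliary transition zone (chr5:43665107-43666204), had H3K18La of 1.73, 1.93 and 0.67 RPKM at 5 mM and 7.88, 8.51 and 8.60 RPKM at 25 mM (log2 fold change 2.25). Its H3K27Ac of 10.1 and 16.0 RPKM rose to 37.7 and 35.8 RPKM. Tub, whose mutation gives the tubby mouse with retinal degeneration (chr7:109020281-109021945), had H3K27Ac of 5.14 and 8.22 RPKM at 5 mM and 22.5 and 18.8 RPKM at 25 mM and was called in both marks. Its H3K18La of 0.85, 0.70 and 0.88 RPKM at 5 mM and 4.89, 3.69 and 1.82 RPKM at 25 mM was no longer called with the replicate block (limma adjusted p = 0.0592) or without 5 mM replicate 1 or 2 or 25 mM replicate 1 or 2 (0.0551 to 0.138), which leaves 2 of the 3 H3K18La calls. The replicate block also removed the H3K27Ac calls of Tub (limma adjusted p = 0.0847) and Cc2d2a (0.169). At these 3 genes every 25 mM library was above every 5 mM library in both marks (background 36.6% of all peaks in H3K18La and 53.0% in H3K27Ac). Rp1l1 was also named for a large H3K18La rise, a choice that required no overlap in that mark.

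Of 31 phototransduction genes, 3 had a member, all of them subunits outside the opsins, and 1 was called in H3K27Ac (background 16.4%) and none in H3K18La (background 20.6%). Cnga1, the rod cyclic nucleotide-gated channel, had H3K27Ac of 3.94 and 5.64 RPKM at 5 mM and 10.3 and 10.1 RPKM at 25 mM. Cnga3, its cone counterpart, had 0 and 1.54 RPKM at 5 mM and 2.13 and 0.26 RPKM at 25 mM. Gngt2, the cone transducin gamma subunit, was called from 0 and 0.85 RPKM at 5 mM to 1.84 and 2.32 RPKM at 25 mM, a change that rests on few reads and whose log2 fold change went from 1.64 to 0.93 without 5 mM replicate 1.

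Among the remaining lists, 3 of the 45 synaptic genes reported here had a member, and none of these 3 members was called in either mark (limma; background 20.6% of all peaks in H3K18La and 16.4% in H3K27Ac, for these lists as for the others). At Cacna1a, the P/Q-type calcium channel gene (chr8:84356765-84358029), H3K18La was 1.87, 1.53 and 1.16 RPKM at 5 mM and 3.62, 2.33 and 2.13 RPKM at 25 mM. At Cacna1c, an L-type calcium channel gene, H3K18La was 0.66, 0.54 and 1.02 RPKM at 5 mM and 3.54, 2.05 and 0 RPKM at 25 mM, which overlapped. At Grin2b, an NMDA receptor subunit gene, no library exceeded 2.46 RPKM in either mark. Of 40 histone acylation genes, the class IIa deacetylases Hdac5 and Hdac7 had members. Hdac7 was called in H3K27Ac, with 2.11 and 2.81 RPKM at 5 mM and 9.18 and 7.77 RPKM at 25 mM, whereas Hdac5 was not. Of 36 SP, KLF and KMT2 factors and partners, Ctcf and Klf4 had members, both under 3 RPKM in every library, and Ctcf was called in H3K27Ac but not in voom, with a log2 fold change of 1.62 that was 0.92 without 5 mM replicate 1. No member was called lower in any list.

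The members nearest to and farthest from their start sites, among the 195 with 10 or more reads in 5 or more libraries, are given next. Gdf15 (691 bp), Skida1 (693 bp) and Maged1 (725 bp) were the nearest. Gdf15, a stress-induced member of the TGF-beta family, had H3K27Ac of 2.17 and 2.95 RPKM at 5 mM and 11.8 and 9.02 RPKM at 25 mM, which was called, and H3K18La of 1.69, 1.29 and 2.30 RPKM and then 4.77, 2.09 and 2.26 RPKM, which overlapped. Skida1 was called in both marks, in H3K18La not without 25 mM replicate 2 or 3 (limma adjusted p 0.0574 and 0.0598), and Maged1 in neither. Galntl6 (1116968 bp), Camta1 (772394 bp) and Rbfox3 (397993 bp) were the farthest. Galntl6 and Camta1 were called in H3K18La but not in H3K27Ac, and Rbfox3 in neither. The Camta1 call was lost without 5 mM replicate 2 or 3 or 25 mM replicate 1 or 2 (limma adjusted p 0.0775 to 0.153), with a pseudocount of 0.1 and with non-robust moderation, and no H3K18La library at 5 mM held more than 3 reads there. The Galntl6 call was lost without 25 mM replicate 1 (limma adjusted p = 0.0549) and with a pseudocount of 0.1. Galntl6 had H3K18La of 1.38, 2.24 and 0 RPKM at 5 mM and 8.37, 5.24 and 6.85 RPKM at 25 mM.

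Across all members the shares called are given by quartiles of this distance, beside 20.6% of all peaks called higher in H3K18La and 16.4% in H3K27Ac. In H3K18La they were 12.7% in the nearest quartile (505 to 2899 bp), 23.5% and 28.9% in the next, and 42 of 150 members in the farthest (38780 bp or more). In H3K27Ac they were 30.0%, 28.2%, 23.5% and 18.7% in the same order. Of the CpG-rich members, 10 of 90 were called in H3K18La (11.1%) and 33 in H3K27Ac (36.7%), against 129 (25.4%) and 117 (23.0%) of the 508 others. The level of the nearest quartile minus the farthest moved from -0.27 ± 0.07 (log2, SD, n = 3) at 5 mM to -0.47 ± 0.11 (SD, n = 3) at 25 mM in H3K18La (exact permutation p = 0.1, adjusted 0.2), and from -0.14 ± 0.02 (SD, n = 2) to 0.09 ± 0.16 (SD, n = 2) in H3K27Ac (exact permutation p = 0.33, adjusted 0.476). Neither change could pass 0.05 at this number of libraries. The CpG-rich and distance groups share members, since 50 of the 90 CpG-rich members were in the nearest quartile. The level of CpG-rich members relative to the others was lower in every H3K18La library, with a difference of -0.29 ± 0.12 (log2 level, SD, n = 3) with 5 mM glucose and -0.46 ± 0.02 (SD, n = 3) with 25 mM. This change of -0.17 did not overlap between glucose levels but gave an exact permutation p of 0.1 (adjusted 0.2 over 10 such comparisons), the smallest possible. In H3K27Ac the same difference was -0.32 ± 0.06 (SD, n = 2) with 5 mM glucose and -0.22 ± 0.26 (SD, n = 2) with 25 mM, which overlapped (exact permutation p = 1). The shares were not tested between marks.

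With a start codon inside, 21.5% of 382 members were called in H3K18La and 25.1% in H3K27Ac, and without one 26.4% and 25.0% of 216, beside 20.6% and 16.4% of all peaks. Members that reached another transcript's promoter window were called in 15.7% and 28.8% of 191 cases, against 26.8% and 23.3% of the other 407. Their level was lower than that of the others in all 10 libraries, with a difference of -0.29 ± 0.05 (log2 level, SD, n = 3) in H3K18La and -0.25 ± 0.14 (SD, n = 2) in H3K27Ac at 5 mM. Among the 32 genes with 2 or more members, calls were shared in some and split in others. The splits were not tested as differences (background 20.6% of all peaks in H3K18La and 16.4% in H3K27Ac). Itpk1 and Syne3, with 2 members each, were called at both members in both marks. Of the 3 members of Fgfr2, a fibroblast growth factor receptor gene, 2 were called in H3K18La and 1 in H3K27Ac, with a span of 1155004 bp between them. Of the 3 members of Ddi2, within 5042 bp of each other, 1 was called in each mark.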

How the data were processed

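CUT&Tag libraries of H3K18La (n = 3 per glucose level) and H3K27Ac (n = 2) were grouped by their labels. Per their methods, the authors aligned reads to GRCm38 with nf-core/cutandrun, called peaks with MACS (-log10 q over 6 in at least 2 replicates), excluded blacklisted regions, counted reads with csaw with a 10000-base window normalization, and annotated peaks with ChIPseeker 1.34.1, and deposited RPKM values. Whether window factors enter the RPKM denominators is not given in the sources used here, so the denominators are not sequencing depths. The labels' protocol names an H3K9me3 antibody where the titles and methods name H3K27Ac. The titles were followed. A deposited table of the authors' own H3K18La fold changes and p-values (edgeR 3.40.2) was not used.

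From the deposited RPKM, reads were recovered as whole multiples (100% of values, tolerance 0.05 reads). The study's methods use a count model. The unit here is RPKM, so limma 3.58.1 in R 4.3.3 (lmFit, eBayes with trend and robust moderation) was used on log2(RPKM + 0.5) over all 108253 peaks, within each mark and with a glucose by mark interaction, with Benjamini-Hochberg adjustment and a threshold of 0.05. Values per library were compared by exact permutation. Other steps ran in Python 3.11.15 (scipy 1.17.1, pandas 2.3.3, numpy 2.4.6). Of the members' transcripts, 592 were found in GENCODE M21, 589 with the same coordinates, so GRCm38 sequence was read for GC content and motifs.

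Named members were, per mark, the 5 largest rises and up to 3 falls past the threshold without overlap of groups and with at least 10 reads in a library, the 4 highest levels, up to 3 members of each gene list, and the 3 nearest and 3 farthest from the start site among those with 10 reads in 5 libraries. A further listed gene and a motif site are not reported here, so list counts cover the genes reported. The members, lists, moderation and rules were chosen with earlier results of these data known. Alternatives were pseudocounts of 0.1 and 1, a mean RPKM of at least 1, non-robust moderation, voom, median centring, scaling to reads in peaks, a replicate block and leaving out each library.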

Additional observations from a re-analysis of the deposited data

Results flagged for a closer look

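At 3 members every 25 mM library was above every 5 mM library in H3K18La and below every 5 mM library in H3K27Ac (0.502%, background 0.701% of all peaks). The differences of their log2 fold changes (H3K27Ac minus H3K18La) were -1.82 at Lhfpl3, -1.79 at Cfap97d1 and -2.04 at Afap1l2. The interaction test in limma gave unadjusted p-values of 0.0488, 0.0379 and 0.0188 and an adjusted p of 0.971 for each, so a difference between the marks was not shown. At Lhfpl3 the H3K18La values were 0, 1.74 and 1.33 RPKM at 5 mM and 1.83, 2.22 and 3.04 RPKM at 25 mM, and the H3K27Ac values were 2.50 and 2.90 RPKM at 5 mM and 2.25 and 0.97 RPKM at 25 mM. At Cfap97d1 and Afap1l2 no library exceeded 1.72 RPKM in either mark.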

How the results depend on the processing

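Calls depended on the scale and, in H3K27Ac, on the spread estimate. The H3K18La calls at members moved from 139 to 41 with median centring (40 higher, 1 lower) and 0 with scaling to reads in peaks, and ranged from 80 to 139 when 1 library was left out, with 86 without 25 mM replicate 1 and 80 without 25 mM replicate 2. The H3K27Ac calls moved from 150 to 0 with a pseudocount of 0.1, with non-robust moderation, with scaling to reads in peaks and without any 1 library, to 36 with median centring and to 59 with the replicate block. The replicate block left 124 H3K18La calls. Deviations of same-numbered libraries from their group means correlated at -0.004 to 0.024 over single peaks. Many peaks held few reads, so these values cannot show whether such libraries were paired. Leaving an H3K27Ac group with 1 library assumes that it varies like the other group. The causes of these changes were not tested. Median centring left a median of all peaks of 0.13 and 0.14 on the log2 scale in H3K18La and H3K27Ac, and scaling to reads in peaks left -0.08 and -0.29.

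The median log2 fold change of members in H3K18La became 1.30 with a pseudocount of 0.1, 0.62 with 1, 1.18 above a mean RPKM of 1, 0.21 with median centring and -0.029 with scaling to reads in peaks. In H3K27Ac it became 1.03 with a pseudocount of 0.1, 0.41 with median centring, -0.16 with scaling to reads in peaks and 0.62 to 1.10 when 1 library was left out. The change in members minus promoters for H3K18La (-0.0082) turned to 0.0034 with a pseudocount of 0.1, to 0.087 above a mean RPKM of 1, and ranged from -0.040 to 0.047 without 1 library. The interaction count stayed 0 in all 18 alternatives. The shares of reads, the other class differences and the difference between marks kept their direction in all alternatives run. For the shares and class differences no exact permutation could pass 0.05, so their p-values say nothing of stability.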
